A study of Mus musculus with 8 samples.

Results

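The TNF receptor superfamily genes described here are 10 receptors, Tnfrsf19, Tnfrsf25, Tnfrsf13c, Tnfrsf4, Tnfrsf9, Tnfrsf18, Tnfrsf1a, Tnfrsf1b, Cd27 and Fas, out of 47937 genes in the count table. They were chosen by name from a table whose Ndrg3 TKO against Ndrg3 ctrl values were already known, so their own differences between the genotypes are given as a description and support nothing further. All 10 had enough counts to be among the 14633 genes tested. RNA was sequenced from CD8SP thymocytes, the CD8 single-positive T cells of the thymus, sorted as TCRβ+ and MHC-I high from 4 mice of each genotype, 1 library per mouse. The Ndrg3 ctrl mice were Ndrg3 +/fl;Lck-cre+ and the Ndrg3 TKO mice were Ndrg3 fl/fl;Lck-cre+, so every animal carried a Cre driven by the T lineage Lck promoter and at least 1 floxed Ndrg3 allele, and each control had also lost 1 copy of the gene wherever Cre had acted. The mice were 6 to 7 weeks old by the labels, and the line was kept on C57BL6/J. No group without Cre is compared here.

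TNF receptors are membrane proteins that bind trimeric ligands of the TNF family on other cells or in solution. Members with a death domain in the cytoplasmic tail, such as Fas and TNFR1, recruit FADD or TRADD and can lead to caspase activation, whereas the others bind TRAF adaptors and lead to NF-κB and MAP kinase signals. In the thymus the costimulatory receptors GITR, OX40, CD27 and TNFR2 are best known from the selection of T cells and from regulatory T cells, and Fas from the removal of activated lymphocytes.

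The sequence upstream of the transcription start is shown for the 4 receptors whose values did not overlap between the genotypes, so that what these genes share there can be seen. Each is the 250 bases before a start of the RefSeq annotation of GRCm38.p6, 5′ to 3′ on the strand of the gene, in lower case. Capitals mark matches, on either strand, to CAGCTG, a core bound by E proteins, or to TGTGGT, the core bound by RUNX factors. Other sequences that E proteins bind were not searched for. Tnfrsf19 and Tnfrsf25 have 2 such starts each. For Tnfrsf19, the outer window (chr14:61046856-61047105, minus strand) lies outside all annotated exons, and the inner one (chr14:61037988-61038237, minus strand) lies within the gene and shares 120 bases with an exon of Gm41168, a long noncoding RNA gene on the other strand that is not in the count table. The windows of Fas (chr19:34290409-34290658, plus strand), Tnfrsf13c (chr15:82224381-82224630, minus strand) and the outer start of Tnfrsf25 (chr4:152115684-152115933, plus strand) overlap no annotated exon. Tnfrsf25 also has an inner start, whose window (chr4:152116093-152116342, plus strand) shares 22 bases with an exon of the gene and is not printed.
Tnfrsf19, outer start: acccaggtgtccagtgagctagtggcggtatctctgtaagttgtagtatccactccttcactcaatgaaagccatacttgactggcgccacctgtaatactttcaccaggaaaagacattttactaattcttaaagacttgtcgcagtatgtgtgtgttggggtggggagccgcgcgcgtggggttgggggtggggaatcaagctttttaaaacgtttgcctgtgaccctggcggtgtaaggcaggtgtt
Tnfrsf19, inner start: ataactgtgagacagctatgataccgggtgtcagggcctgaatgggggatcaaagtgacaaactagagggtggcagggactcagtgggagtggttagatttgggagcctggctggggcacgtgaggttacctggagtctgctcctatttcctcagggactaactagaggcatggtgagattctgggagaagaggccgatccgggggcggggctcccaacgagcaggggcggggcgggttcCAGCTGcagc
Fas: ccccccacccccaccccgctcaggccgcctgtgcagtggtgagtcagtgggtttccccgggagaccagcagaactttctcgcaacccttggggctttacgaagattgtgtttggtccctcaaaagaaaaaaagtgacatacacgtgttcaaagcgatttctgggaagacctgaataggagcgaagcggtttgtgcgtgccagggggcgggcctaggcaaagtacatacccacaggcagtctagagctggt
Tnfrsf13c: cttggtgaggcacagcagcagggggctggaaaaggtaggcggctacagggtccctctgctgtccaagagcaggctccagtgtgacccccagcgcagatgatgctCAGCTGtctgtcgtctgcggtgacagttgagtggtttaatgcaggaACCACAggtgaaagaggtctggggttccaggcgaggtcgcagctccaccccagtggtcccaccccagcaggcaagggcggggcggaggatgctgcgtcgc
Tnfrsf25, outer start: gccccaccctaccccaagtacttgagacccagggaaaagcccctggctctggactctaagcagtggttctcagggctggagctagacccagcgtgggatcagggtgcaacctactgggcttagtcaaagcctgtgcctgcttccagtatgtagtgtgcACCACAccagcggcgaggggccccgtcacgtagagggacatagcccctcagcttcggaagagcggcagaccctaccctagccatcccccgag

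The inner window of Tnfrsf19 held 1 CAGCTG, 10 bases before the start, and the outer window and that of Fas held neither core. Tnfrsf13c had a CAGCTG and a RUNX core, and the outer window of Tnfrsf25 a RUNX core. Over all 13 upstream windows of the 10 genes, 3 held CAGCTG, against 13.0% of 32851 windows of the mouse annotation, and 2 held the RUNX core, against 14.0%. The NF-κB consensus was found in 2 windows, both of inner starts, of Tnfrsf9 and Tnfrsf25, and in 7.25% of all windows. GGTGTGA, the core bound by T-box factors, was in none of the 13 and in 3.33% of all windows. A match of letters is no evidence of binding, and its absence from these windows says nothing of a factor.

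Total counts per library ran from 21126698 to 32668081, so that 3 counts, taken as the limit of detection, equal 2.66 to 4.26 normalized counts. Normalized counts are counts brought to a common library size, the average total of the 8 libraries, with TMM factors. Cd8a had 28364 to 44744 counts per library and Cd4 had 5 to 44, as the label CD8SP requires, and none of the 7 CD8 T cell markers listed passed the threshold. Of 7 genes that mark maturity of single-positive thymocytes none passed either with edgeR or DESeq2, although 5 had an unadjusted p under 0.05 with edgeR, with a summed level of 2376 to 2736 CPM in Ndrg3 ctrl and 2254 to 2447 in Ndrg3 TKO. Y-linked transcripts stood at 340 to 416 CPM in Ndrg3 ctrl replicate 2 and in Ndrg3 TKO replicates 2 and 3. They were at most 0.0752 CPM in the other 5 libraries, which are called libraries without them. The groups are thus not balanced for sex-linked expression. Ndrg3, the targeted gene, had 2293, 2357, 2348 and 2341 normalized counts in Ndrg3 ctrl and 1459, 1401, 1535 and 1600.2 in Ndrg3 TKO, with reads counted over the whole gene (log2 fold change −0.64, SE 0.0526, adjusted p = 1.04e-05, edgeR quasi-likelihood). All adjusted p-values that follow are Benjamini-Hochberg values of this fit over all tested genes, in which 1.15% of genes had an adjusted p under 0.05, 0.793% being higher and 0.355% lower in Ndrg3 TKO. The share of all tested genes with an unadjusted p under 0.05 is not given here. Nothing is therefore read from the counts of listed genes at that unadjusted cut.

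The 10 receptors spanned a 713-fold range of transcript level in control CD8SP thymocytes. Levels are compared between genes as CPM (TMM-scaled counts relative to library size) per kilobase of exon. Cd27, a costimulatory receptor of T cells that binds CD70, was highest at 80.2 ± 6.52 (SD, n = 4), above 96.2% of tested genes. Tnfrsf1b, which encodes TNFR2, followed at 62.3 ± 5.64 and Tnfrsf1a, which encodes TNFR1, at 32.3 ± 1.55. The ranges of these receptors over the control libraries did not overlap with those of their neighbours in the order, and together they made up 71.8% of the summed level of the 10 genes.

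Tnfrsf9 (CD137) at 22.5 ± 3.38 CPM per kb and Tnfrsf18 (GITR) at 18.2 ± 2.42 came next, and their control ranges overlapped. Fas was at 12.8 ± 0.594, clear of both neighbours. Tnfrsf25 (DR3) at 7.76 ± 1.89 and Tnfrsf4 (OX40) at 6.21 ± 0.764 again overlapped, close to the middle of the tested genes. Tnfrsf13c, the BAFF receptor, had 1.21 ± 0.228 and Tnfrsf19, also called TROY, had 0.113 ± 0.0257, a level exceeded by all but 2.00% of tested genes. In Ndrg3 TKO the order was the same except that Tnfrsf4 stood above Tnfrsf25 and Tnfrsf19 above Tnfrsf13c, with Tnfrsf19 at 0.690 ± 0.0695 and Tnfrsf13c at 0.658 ± 0.129 CPM per kb.

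**Figure D1:**
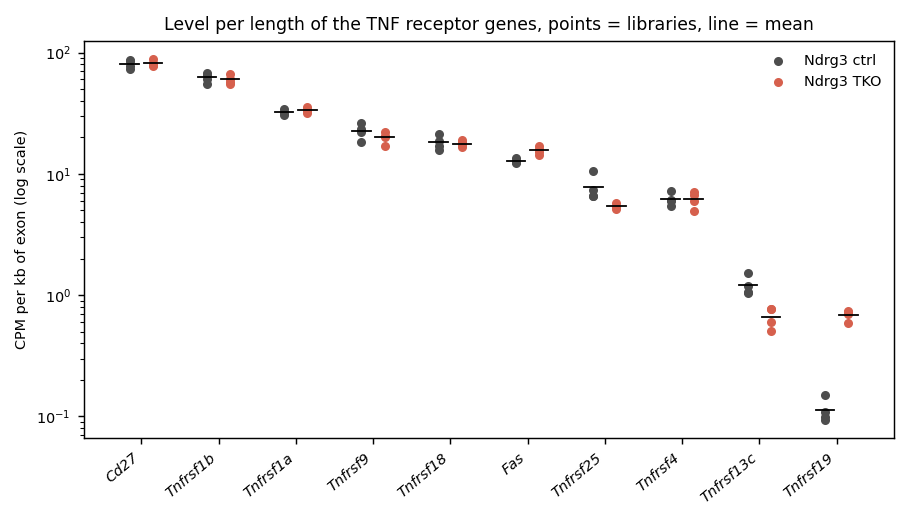
Level of each receptor gene per exonic length, in CPM per kb on a log scale, with 1 point per library and a line at the mean of 4 libraries (grey, Ndrg3 ctrl, and red, Ndrg3 TKO). Genes are ordered by their control mean, from Cd27 at 80.2 to Tnfrsf19 at 0.113, and in most of them the genotypes lie on top of each other.

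Of the 10 receptors, 1 was past the threshold, Tnfrsf19, and in 4 the Ndrg3 TKO libraries all lay to one side of the Ndrg3 ctrl libraries, where 7.04% of tested genes had groups that did not overlap. Tnfrsf19 and Fas were higher, and Tnfrsf25 and Tnfrsf13c were lower. The median log2 fold change of the 10 was −0.03 and its median size 0.11, against −0.0033 and 0.0883 over all tested genes. As the genes were chosen with this contrast known, nothing is read from these counts.

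Tnfrsf19 (ENSMUSG00000060548, chr14:60963875-61046490, minus strand) encodes a TRAF-binding receptor without a death domain, known mainly from embryonic epithelium, the nervous system and epithelial stem cells. Its normalized counts were 13.6, 12.8, 20.6 and 14.8 in Ndrg3 ctrl replicates 1 to 4 and 95.9, 80.8, 99.5 and 102.1 in Ndrg3 TKO replicates 1 to 4. Every Ndrg3 TKO library thus held several times the count of the highest control. The control values rest on 9 to 21 reads per library, all above the limit of 3, and the Ndrg3 TKO values on 89 to 115. The mean was 15.4 ± 3.52 (SD, n = 4) in Ndrg3 ctrl and 94.6 ± 9.53 in Ndrg3 TKO, a 6.13-fold difference or 2.59 on the log2 scale (SE 0.206, adjusted p = 7.28e-06, edgeR). The transcript therefore rose from near the bottom of the tested range to 0.690 CPM per kb in Ndrg3 TKO. Tnfrsf13c was at 0.658 in Ndrg3 TKO, down from 1.21 in Ndrg3 ctrl. Both genes stayed below the other 8 receptors per length.

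The Tnfrsf19 difference was of like size in libraries alike in Y-linked transcripts. Among libraries without them the means were 16.3 in 3 Ndrg3 ctrl and 99.0 in 2 Ndrg3 TKO libraries, and among those with them 12.8 in 1 and 90.1 in 2. Leaving out any single library kept the difference between 2.52 and 2.77 on the log2 scale and past the threshold. In bulk RNA, more cells that express a gene and more RNA per cell cannot be told apart, and this holds for each receptor described here. Of the markers of other cells listed, Klrb1c (NK1.1) and Tcrg-C1, a constant segment of the T cell receptor γ chain, were also higher in Ndrg3 TKO, with log2 fold changes of 2.62 (SE 0.358, adjusted p = 0.00149) and 2.72 (SE 0.242, adjusted p = 2.37e-05, edgeR). Of the 5 NK or NKT markers 2 could be tested, as could 2 of the 5 γδ T cell markers, and in each list 1 passed. The other tested ones were Klrd1, with means of 909.6 and 1128 normalized counts in Ndrg3 ctrl and Ndrg3 TKO (adjusted p = 0.320, edgeR), and Trdc, with 350.3 and 344 (adjusted p = 0.954, edgeR). Among those too low to test, Zbtb16 had means of 7.08 and 1.61 with groups that did not overlap, Klrk1 had 11.7 and 3.5, and Ncr1 and Trdv4 had 0 counts in every library. Apart from Klrb1c and Tcrg-C1, these markers are named after their values were seen. The summed level was 29.4 to 34.3 CPM in Ndrg3 ctrl and 31.5 to 49.4 in Ndrg3 TKO for the NK or NKT list, nearly all of it Klrd1. For the γδ T cell list it was 11.8 to 14.5 and 15.5 to 17.9, most of it Trdc, which was even between the groups. Tcrg-C1 had means of 20.3 and 134 normalized counts. Sox13 had 8.26 and 4.84 and Blk 2.30 and 2.61, both untested and also named after their values were seen. Of the 6 markers of thymic epithelium and stroma, 2 could be tested and neither passed, and 3 had at most 3 counts in any library, with sums of 3.79 to 5.30 CPM in Ndrg3 ctrl and 2.48 to 4.11 in Ndrg3 TKO. The part of any of these cells in the Tnfrsf19 difference was not tested.

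The tested genes most like Tnfrsf19 over the 8 libraries, by Pearson's r of log2 CPM, were Snx15 (r = 0.989), Tppp (r = 0.984) and Zmym4 (r = 0.984). These correlations are a description, since the 8 libraries fall into 2 genotypes and genes that differ between these score high by construction. Snx15, a sorting nexin, had means of 362 and 505 normalized counts in Ndrg3 ctrl and Ndrg3 TKO, and Tppp, which encodes a tubulin-binding protein, had 10.4 and 402. Zmym4, a zinc finger gene, had 2618 and 2872 and did not pass the threshold (adjusted p = 0.226, edgeR).

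The death-domain receptors among the 10 are Tnfrsf1a, Fas and Tnfrsf25. Fas (ENSMUSG00000024778, chr19:34290666-34327772, plus strand), which transmits the apoptotic signal of Fas ligand, had 765, 749, 813 and 729.9 normalized counts in Ndrg3 ctrl and 1014, 847, 904 and 955 in Ndrg3 TKO. The lowest Ndrg3 TKO library was 847 and the highest control 813, so the groups were separate but close. The mean was 764 ± 35.4 against 929.9 ± 71.3 (SD, n = 4), a log2 fold change of 0.28 (SE 0.0702) that did not pass the threshold (adjusted p = 0.0811, edgeR). Of 17 other settings it passed in 4, among them the fit without Ndrg3 TKO replicate 2 (adjusted p = 0.0479, edgeR) and DESeq2 (adjusted p = 0.0208). It did not pass with any other library left out (adjusted p from 0.112 to 0.259, edgeR) or with limma voom (adjusted p = 0.100). Within libraries without Y-linked transcripts the means were 769 and 984, and within those with them 749 and 875.

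Tnfrsf25 (ENSMUSG00000024793, chr4:152115934-152120119, plus strand) encodes DR3, the receptor of the cytokine TL1A on T cells. Normalized counts were 434, 433, 482 and 695 in Ndrg3 ctrl and 353, 338, 349.6 and 381 in Ndrg3 TKO. All Ndrg3 TKO libraries were below all controls, and Ndrg3 ctrl replicate 4 stood well above the other controls. The mean was 511 ± 125 against 355 ± 18.3 (SD, n = 4), and the control spread of 24.4% of the mean compares with 5.16% in Ndrg3 TKO. The log2 fold change of −0.53 (SE 0.136) did not pass the threshold (adjusted p = 0.105, edgeR) and was −0.34 without Ndrg3 ctrl replicate 4 (adjusted p = 0.124), whereas DESeq2 gave an adjusted p of 0.0147. The means were 537 and 367 among libraries without Y-linked transcripts and 433 and 344 among those with them.

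Tnfrsf1a (ENSMUSG00000030341, chr6:125349362-125362484, plus strand) encodes TNFR1, the death-domain receptor of TNF. It had 2578, 2377, 2420 and 2303 normalized counts in Ndrg3 ctrl and 2668, 2509, 2495 and 2360 in Ndrg3 TKO. The groups overlapped over most of their range, and the gene varied least among the 10 within Ndrg3 TKO, by 5.02% of its mean. Its log2 fold change was 0.05 with a 95% interval from −0.06 to 0.17, so that a difference of the size seen for Fas lay outside the interval.

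Tnfrsf1b (ENSMUSG00000028599, chr4:145213463-145246870, minus strand), the gene of the TRAF-binding TNF receptor TNFR2, had 7248, 7506, 6695 and 6102 normalized counts in Ndrg3 ctrl and 6731, 6350.1, 7342 and 6072 in Ndrg3 TKO. The groups were interleaved, with a log2 fold change of −0.06 (95% interval −0.21 to 0.10).

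The costimulatory receptors Cd27, Tnfrsf4, Tnfrsf9 and Tnfrsf18 showed overlapping groups throughout. Cd27 (ENSMUSG00000030336, chr6:125232622-125237010, minus strand) had 4885, 5731, 5199 and 5805 normalized counts in Ndrg3 ctrl and 5355, 5253, 5982 and 5538 in Ndrg3 TKO. Its log2 fold change was 0.03 (95% interval −0.10 to 0.17). The gene overlaps Vamp1, which is on the opposite strand and shares none of its exonic bases. On the same strand, the microRNA gene Mir8113 shares 129 bases, 5.54% of the exonic bases of Cd27, and had a mean of 0 normalized counts.

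Tnfrsf9 (ENSMUSG00000028965, chr4:150914562-150946102, plus strand), an activation-induced receptor of T cells, had 1829, 2074, 1747 and 1430.1 normalized counts in Ndrg3 ctrl and 1628, 1588, 1753 and 1346 in Ndrg3 TKO. Replicate 4 was the lowest library in both groups. The log2 fold change was −0.16 (95% interval −0.40 to 0.07), which leaves room for a difference as large as that of Fas in the other direction. Its annotated span overlaps Camta1 on the opposite strand, without shared exonic bases.

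Tnfrsf4 and Tnfrsf18 encode OX40 and GITR, both high on regulatory T cells, and lie 9551 bases apart on chromosome 4. Tnfrsf4 (ENSMUSG00000029075, chr4:156013843-156016612, plus strand) had 242, 215, 287 and 238 normalized counts in Ndrg3 ctrl and 266, 195, 236 and 278 in Ndrg3 TKO. It was the most even between the groups, with means of 245 ± 30.2 and 244 ± 37.0 (SD, n = 4) and a log2 fold change of −0.01 (95% interval −0.29 to 0.26) whose sign depended on the libraries used. Tnfrsf18 (ENSMUSG00000041954, chr4:156026164-156028895, plus strand) had 823, 945, 699 and 749 in Ndrg3 ctrl and 756, 808, 831 and 728 in Ndrg3 TKO, with a fold change on the log2 scale of −0.04 (95% interval −0.23 to 0.15). The antisense gene Gm16008 covers 27.2% of the exonic bases of Tnfrsf18 and had a mean of 6.34 normalized counts, so reads of the pair may not be separable if strand was not used in counting. The summed level of the regulatory T cell markers Foxp3, Il2ra, Ikzf2 and Ctla4 was 499 to 595 CPM in Ndrg3 ctrl and 565 to 713 in Ndrg3 TKO, nearly all of it Ikzf2. None of the 4 passed the threshold with edgeR or DESeq2, but 3 had an unadjusted p under 0.05 with edgeR, each higher in Ndrg3 TKO with groups that overlapped. Mean normalized counts in Ndrg3 ctrl and Ndrg3 TKO were 99.8 and 144 for Foxp3, 132 and 202 for Il2ra, and 15525 and 18064 for Ikzf2, genes named after their values were seen. The part of regulatory T cells in the Tnfrsf4 and Tnfrsf18 values was not tested.

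Tnfrsf13c (ENSMUSG00000068105, chr15:82221743-82224369, minus strand) encodes the BAFF receptor, a survival receptor best known from B cells. Its normalized counts were 62.1, 71.0, 62.7 and 91.0 in Ndrg3 ctrl and 35.5, 45.4, 29.9 and 45.3 in Ndrg3 TKO. The groups did not overlap, and Ndrg3 ctrl replicate 4 was the highest library, as it was for Tnfrsf25. The mean was 71.7 ± 13.5 against 39.0 ± 7.64 (SD, n = 4), a log2 fold change of −0.87 (SE 0.204, adjusted p = 0.0622, edgeR) that missed the threshold, while DESeq2 placed it past the threshold (adjusted p = 0.0156). Means were 71.9 and 40.4 among libraries without Y-linked transcripts and 71.0 and 37.7 among those with them.

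Among the 6 B cell markers listed, Ms4a1 and Pax5 had at most 3 counts in any library. The summed level of the list, nearly all of it Ighm, was 252 to 301 CPM in Ndrg3 ctrl and 261 to 311 in Ndrg3 TKO. The 2 genes of the list that could be tested, Ighm and Cd79b, did not pass the threshold. Cd79b was lower in each Ndrg3 TKO library, with means of 342 and 252 normalized counts and a log2 fold change of −0.43 (SE 0.0992, adjusted p = 0.0529, edgeR), and passed with DESeq2 (adjusted p = 0.00515). Ms4a1 and Pax5 were therefore at or near the limit of detection in both groups, while the part of Cd79b-expressing cells in the Tnfrsf13c values was not tested.

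**Figure D2:**
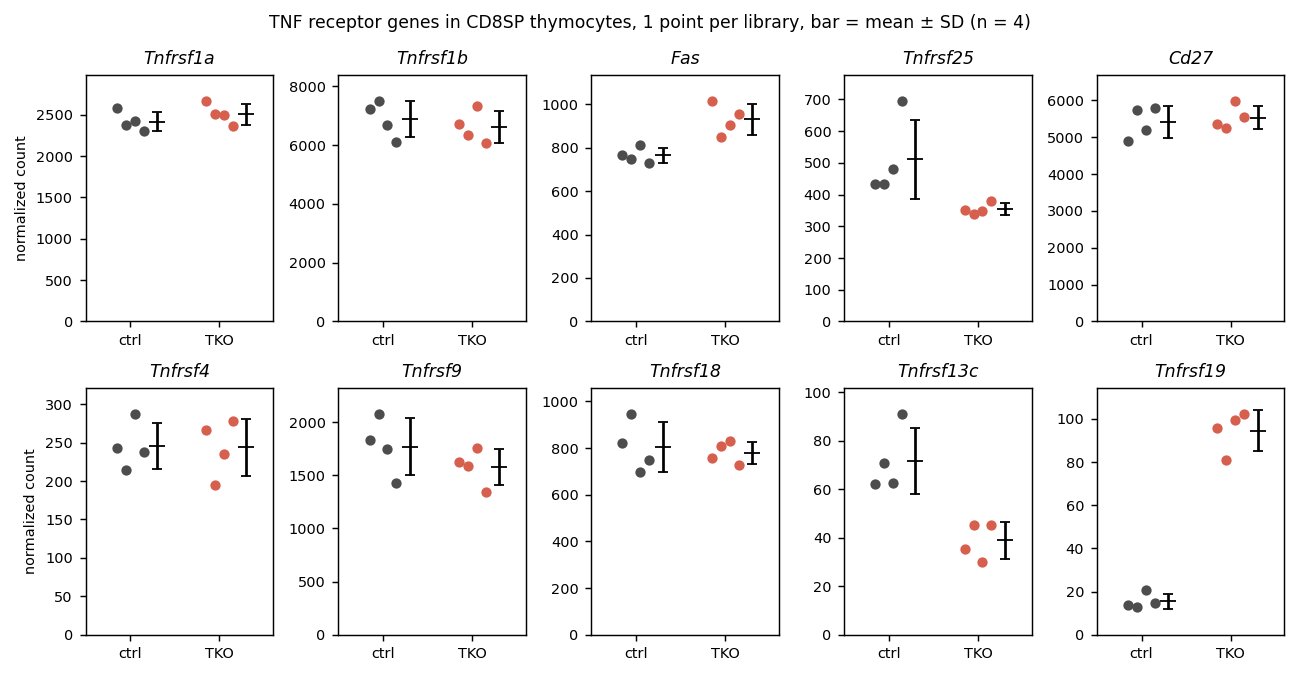
Normalized counts of the 10 receptor genes (vertical axes from 0) in the 4 Ndrg3 ctrl (grey) and 4 Ndrg3 TKO (red) libraries, replicates 1 to 4 from left to right in each group, with a bar for the mean ± SD. Tnfrsf19, Fas, Tnfrsf25 and Tnfrsf13c have groups that do not overlap, and the Tnfrsf19 values run from 12.8 to 20.6 in Ndrg3 ctrl and from 80.8 to 102.1 in Ndrg3 TKO.

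Within the genotypes, the receptors did not vary as a block. After removal of the group means, the 45 pairs of the 10 genes had a median correlation of −0.14 over the 8 libraries, with a range from −0.84 to 0.94. The closest pair was Tnfrsf9 with Tnfrsf1b (r = 0.941), and Tnfrsf18 was close to both (r = 0.731 with Tnfrsf9 and 0.718 with Tnfrsf1b). Tnfrsf4 was also close to Fas (r = 0.870) and to Tnfrsf19 (r = 0.841). Tnfrsf25 and Tnfrsf9 were the most opposed (r = −0.841). The receptors that were lower in Ndrg3 TKO, Tnfrsf25 and Tnfrsf13c, had r = 0.615, and those that were higher, Tnfrsf19 and Fas, had r = 0.636. These values describe 8 libraries that share a scaling, and carry no test.

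The mouse family holds 18 further receptor genes on the list used here, of which 8 had enough counts to be tested and none passed the threshold with edgeR, with DESeq2 or in any other setting. At an unadjusted p under 0.05 there were 2, Tnfrsf10b and Tnfrsf21. Tnfrsf10b, a death receptor of TRAIL, had means of 238 and 289 normalized counts in Ndrg3 ctrl and Ndrg3 TKO. Tnfrsf21, the death receptor DR6, had 108 and 83.2. In both the groups did not overlap, as in 7.04% of all tested genes. These pairs of values were singled out after they were seen. Tnfrsf14, which encodes HVEM, was the highest of the 8 per length at 73.0 CPM per kb in Ndrg3 ctrl and 71.7 in Ndrg3 TKO. Relt at 20.8 and 20.1 and Tnfrsf13b, which encodes TACI, at 15.3 and 15.8 followed. The median log2 fold change of the 8 was −0.04. Among the 10 that were not tested, 7 had at most 3 counts in every library, Cd40, Ltbr and Edar among them.

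Of 18 TNF family ligands, 11 were tested and 1 passed the threshold. Tnfsf8, the ligand of CD30, had 808, 847, 774 and 964 normalized counts in Ndrg3 ctrl and 964, 1111, 1354 and 1292 in Ndrg3 TKO. The lowest Ndrg3 TKO library was just above the highest control. The means were 848 ± 82.4 and 1180.3 ± 177 (SD, n = 4), and Tnfsf8 rose by a log2 fold change of 0.48 (SE 0.103, adjusted p = 0.0452, edgeR). Without any 1 of Ndrg3 ctrl replicates 1, 2 and 3 or Ndrg3 TKO replicates 2, 3 and 4 it no longer passed (adjusted p from 0.0609 to 0.145). Its receptor gene, Tnfrsf8, was at most 3.83 normalized counts in any library.

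Ltb, the lymphotoxin β gene, was by far the most abundant ligand at 196 CPM per kb in Ndrg3 ctrl and 195 in Ndrg3 TKO, followed by Tnfsf10, which encodes TRAIL, at 11.7 and 10.8, and Tnf at 8.53 and 9.71. None of these passed the threshold. Of the ligands of the 10 receptors, Cd70 (for CD27), Tnfsf18 (for GITR), Tnfsf15 (for DR3) and Fasl (for Fas) were too low to be tested. Tnfsf4, the OX40 ligand, had means of 5.30 and 17.5 normalized counts with a log2 fold change of 1.75 that missed the threshold (SE 0.516, adjusted p = 0.162, edgeR). Tnfsf14 had means of 98.8 and 154.7 with a log2 fold change of 0.64 that also missed it (SE 0.156, adjusted p = 0.0729, edgeR). With DESeq2, Tnfsf14 passed beside Tnfsf8. Both Tnfsf4 and Tnfsf14 were singled out after their values were seen. No ligand passed in the lower direction. The median log2 fold change of the 11 ligands was 0.19, against −0.0033 over all tested genes.

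**Figure D3:**
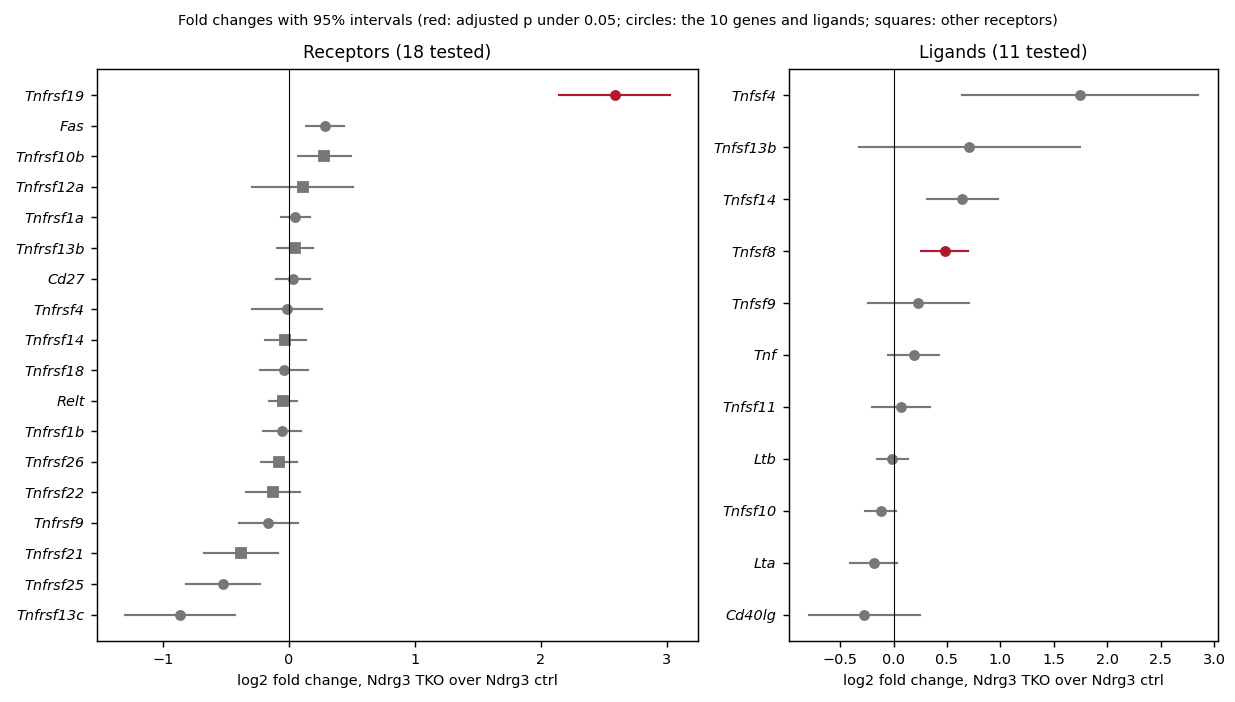
Log2 fold changes of Ndrg3 TKO over Ndrg3 ctrl with 95% intervals for the 18 tested TNF receptor genes (left, circles for the 10 receptors described here and squares for the others) and the 11 tested ligands (right), with genes past the threshold in red. Tnfrsf19 at 2.59 stands apart from the other receptors, which lie between −0.87 and 0.28, and Tnfsf8 is the ligand past the threshold.

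Of 43 genes that carry the signals of these receptors, all were tested and 1 passed the threshold. Birc3, which encodes the ubiquitin ligase cIAP2, a partner of TRAF2 and an NF-κB target gene, had 2435, 2360, 2449 and 2417 normalized counts in Ndrg3 ctrl and 2816, 2658, 2996 and 2818 in Ndrg3 TKO. All Ndrg3 TKO libraries were above all controls. Birc3 rose by a log2 fold change of 0.22 (SE 0.0492, adjusted p = 0.0435, edgeR), and the call was lost without any 1 of the libraries other than Ndrg3 TKO replicate 2 (adjusted p from 0.0835 to 0.167). It was the single called gene of 10 TRAF and cIAP adaptors, of which Traf4 (28.0 and 29.2 CPM per kb in Ndrg3 ctrl and Ndrg3 TKO), Traf3 (23.0 and 22.5) and Birc2 (22.5 and 21.8) were the highest per length.

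None of the 17 genes of death signalling and its control passed with edgeR, while 1 had an unadjusted p under 0.05 and DESeq2 called 1. Rbck1 (50.6 and 47.0 CPM per kb), Casp8 (46.9 and 48.1) and Tnip1 (38.4 and 39.8) were the highest. Of 16 NF-κB pathway genes, none passed with edgeR or DESeq2 and 1, Tab1, named after its value was seen, had an unadjusted p under 0.05 with edgeR, and log2 fold changes lay between −0.10 and 0.13. Nfkbia, an inhibitor of NF-κB that is itself induced by the pathway, was the highest at 77.5 and 79.3 CPM per kb, and Rela (32.9 and 31.8) and Tab2 (29.7 and 30.3) came next. The median log2 fold change of the 43 genes was −0.00033.

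**Figure D4:**
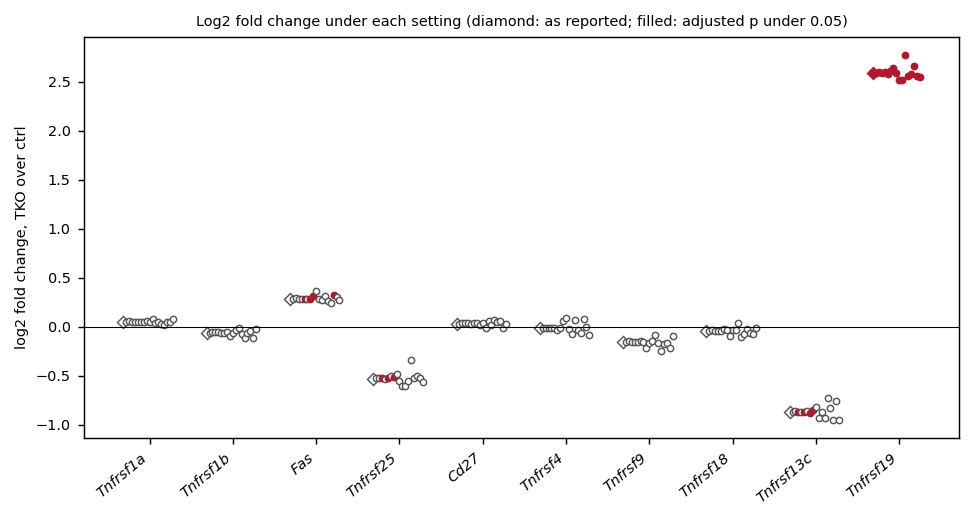
Log2 fold change of the 10 receptor genes as reported (diamond, leftmost) and under each other setting, among them other normalizations, filters and tools, covariates, and each library left out (circles), filled where the adjusted p was under 0.05. Tnfrsf19 was past the threshold in every setting in which it was tested, and Fas, Tnfrsf25 and Tnfrsf13c kept their direction in all while passing the threshold in some.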

How the data were processed

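RNA of sorted CD8SP thymocytes from 4 Ndrg3 ctrl and 4 Ndrg3 TKO mice was prepared with a stranded total RNA kit with ribosomal RNA depletion. After trimming with cutadapt, the authors used STAR for alignment to GRCm38.p4 with GENCODE annotation and featureCounts for counting per gene, and deposited raw counts, which are not normalized. The strand setting and the handling of reads with several matches are not given in the sources used here. Groups and replicate numbers came from the sample labels.

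Symbols, positions and exonic lengths came from a later GENCODE release of GRCm38 (47310 of 47937 genes matched). Counts were fitted with edgeR 4.0.16 (R 4.3.3, limma 3.58.1): filterByExpr by group, TMM, robust glmQLFit and glmQLFTest, Benjamini-Hochberg adjustment over 14633 genes, threshold 0.05. SE is the size of the log2 fold change over √F. Log2 CPM used a prior count of 2. The fit was tested on simulated data. Replicates of a group differed by 9.95 to 33.6 chi-square per gene, so no library duplicates another. The limit of 3 counts covers counting error only, since no molecular identifiers were used and several reads can come from 1 molecule.

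The receptors and gene lists were chosen with earlier results of these data known. Genes named singly are the 10 receptors, Ndrg3, genes of the lists past the threshold, the 3 highest per length of each receptor, ligand and signalling list, and the 3 genes most like each receptor past the threshold, and any other is said to be chosen after its values were seen. Alternatives were RLE and upper quartile normalization, no filter, at least 10 counts in every library, DESeq2 1.42.0, limma voom, a replicate block, Y-linked expression (above 10 CPM) as a covariate and each library left out. The fit on libraries without Y-linked expression was added after seeing the data. Promoter sequences are RefSeq's, of GRCm38.p6, and all 10 receptors matched by symbol. Of the lists of other cells, no gene passed the threshold among 2 tested of 3 in the CD4 lineage list, 3 of 5 in the immature thymocyte list and 1 of 6 in the myeloid list, while DESeq2 called 1 of the immature thymocyte list. Values of some genes of the lists are not reported here.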

Additional observations from a re-analysis of the deposited data

Results flagged for a closer look

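Over the 28 genes followed through all settings, 56 groups of 4 libraries were examined for a library far from the others, of which chance gives about 1 in 20, or 2.8. The check singled out 1. Ltb had 10064 normalized counts in Ndrg3 ctrl replicate 2, where the other control libraries lay between 8023 and 8228, a gap of 0.899 of the range. The cause was not tested.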

How the results depend on the processing

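Tnfrsf19 kept its direction and its call in the 16 settings that tested it (log2 fold change 2.52 to 2.77). With at least 10 counts in every library it was not tested, and 0 of the 10 receptors passed. The receptors past the threshold numbered 3 without a filter on low counts, 4 with DESeq2 and 3 with Y-linked expression as a covariate, the added genes being among Fas, Tnfrsf25 and Tnfrsf13c, and 1 to 2 with a library left out. Over all genes, 274 of 24678 tested passed without a filter, 309 of 14633 (2.11%) with DESeq2, and 437 of 14633 with the Y-linked covariate. In the 5 libraries without Y-linked expression 92 of 15046 passed, and 90 to 158 of 14791 to 14877 with a library left out. Ligands past the threshold numbered 2 without a filter and with DESeq2, 0 with at least 10 counts in every library, with limma voom and in the libraries without Y-linked expression, and 0 to 1 with a library left out. Signalling genes numbered 2 without a filter, with DESeq2 and with the Y-linked covariate, 0 with limma voom and in the libraries without Y-linked expression, and 0 to 1 with a library left out. No other receptor gene passed in any setting. The cause of these changes was not tested.

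With the replicate block, 800 genes (5.47%) passed instead of 168, 4 receptors (Tnfrsf19, Fas, Tnfrsf25 and Tnfrsf13c), 2 ligands and 2 signalling genes. Same-numbered libraries correlated at 0.181, 0.415, −0.055 and 0.301 after removal of group means. Replicates 1, 2 and 4 of Ndrg3 ctrl correlated best with their own number. Ndrg3 ctrl replicate 3 was instead closest to Ndrg3 TKO replicate 4 (0.145). The column names of the counts also fall in runs that hold both genotypes, and what the runs stand for is not given. The labels name no pairs, so the fit reported here uses no block. Whether the numbers pair the mice was not tested further. Signs turned only where values were near 0. Tnfrsf4 was 0.06 with the Y-linked covariate, 0.09 in the libraries without Y-linked expression and −0.08 to 0.08 with a library left out. Ltb was 0.00 with upper quartile normalization, 0.03 in the libraries without Y-linked expression and −0.04 to 0.07 with a library left out, and Birc2 was 0.01 in the libraries without Y-linked expression. With a library left out, Tnfrsf18 ran from −0.10 to 0.04, Cd27 from −0.01 to 0.07, Tnfrsf14 from −0.10 to 0.03, Nfkbia from −0.01 to 0.07 and Rela from −0.09 to 0.01. Tnfrsf19 counts of 9 to 21 in the controls limit the precision of its fold change.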
